A study of Homo sapiens with 3 samples.

Results

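Ribosome footprints on 10 genes that encode amino acid transporters of the plasma membrane were compared in human cells that expressed wild-type (WT), G245S or R273H p53. The 10 genes are SLC3A2, SLC7A5, SLC7A6, SLC7A11, SLC43A2, SLC7A1, SLC1A5, SLC1A4, SLC38A1 and SLC38A2. They were taken by name from a table of 63241 genes, by a rule that uses no measured value. Earlier results of these data were known when the genes were chosen. All 10 passed the filter on low counts, as did 19820 genes of the table. Most of them gained footprints in both mutants, with SLC7A5 and SLC7A11 gaining most, while SLC43A2 lost footprints in both.

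Cells take up most amino acids through such carriers. SLC3A2 (CD98 heavy chain) carries no amino acid itself but brings a catalytic light chain of the SLC7 family to the cell surface, and each pairing has its own substrates. Other carriers work without it: SLC7A1 brings in arginine and lysine, the SLC1 and SLC38 members move glutamine and other neutral amino acids with sodium, and SLC43A2 lets branched-chain amino acids pass down their gradient. In cells short of amino acids, the transcription factor ATF4 is known to raise many of these genes through a short DNA element, the amino acid response element. WT p53 is known to repress SLC7A11.

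Ribosome profiling (Ribo-seq) sequences mRNA fragments shielded by ribosomes, and was used by the study to ask whether mutant p53 alters translation. The cells were HEK293T, a line from human embryonic kidney in which the large T antigen of SV40 is present and can bind p53, in all 3 groups alike. The study's methods describe lines selected in puromycin after lentiviral delivery of WT, G245S or R273H p53, 1 line per construct and with no cloning step. GEO's labels call the cells stable in one field and transient in another, and the treatment field of both mutants names the wt construct; groups here follow the sample titles. Every group had 3 culture dishes (n = 3), exposed to cycloheximide for 2 min before harvest. Lysates of all 3 groups were digested with micrococcal nuclease (3 U per µg RNA, 30 min). The labels describe the 3 dishes of each group as joined at reverse transcription, 1 pool per group. Group and pool therefore cannot be told apart in any comparison below, and the spread between dishes is that within 1 pool. Cells without a p53 construct were not analysed here.

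Libraries held 18.7 to 24.6 M expected counts, which are estimated footprint numbers per gene. The labels call the cells epithelial. KRT18 (108 to 120.5 CPM, counts scaled to a common library total) and KRT8 (32.4 to 44.5 CPM) were well covered, whereas CDH1 reached only 8.58 CPM and the neurofilament gene NEFM lay at 258 to 283 CPM. PTPRC, CD3E, PECAM1 and CDH5, which mark blood and endothelial cells, were at or near 0 in every dish. As a check of the labels, MDM2 and CDKN1A, which WT p53 activates, had log2 fold changes against WT of -3.48 and -1.92 in G245S and of -3.49 and -2.14 in R273H, in that order. A level of footprints in such bulk samples does not tell fewer cells of a type from less RNA per cell, nor, with no RNA-seq used here, mRNA amount from translation of each mRNA.

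The start regions of these genes were searched for the core of the amino acid response element, TGATGNAA on either strand, because several members are known targets of ATF4. Windows of 250 bases before to 50 bases from each RefSeq start (GRCh38.p14) were taken for 9 members, SLC7A11 being the one not matched. The letters occurred in 5 of these 9 genes (55.6%), or 5 of their 17 windows (29.4%), against 1217 of 27305 genes (4.46%) and 1270 of 35116 windows (3.62%) in the whole RefSeq table. The 5 stretches are printed with that of ASNS, the asparagine synthetase gene in which the element is best known, each 5′ to 3′ on the strand of the gene, with the matched letters in capitals:
SLC7A1: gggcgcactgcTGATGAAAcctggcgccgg
SLC38A1: tcagacccgaaTGATGAAAagggatcagct
SLC1A5: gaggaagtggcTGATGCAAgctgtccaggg
SLC1A4: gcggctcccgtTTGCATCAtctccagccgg
SLC3A2: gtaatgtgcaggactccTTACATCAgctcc
ASNS: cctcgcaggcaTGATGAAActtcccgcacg
SLC7A1 and SLC38A1 held the same 8 letters as ASNS. In SLC1A4 and SLC3A2 the match lay on the opposite strand, so the capitals show its reverse complement.

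Coordinates here are those of the printed stretches, whereas the annotation is that of the matched letters alone. The matched letters of SLC7A1 (chr13:29595663-29595692, minus strand) lay in the untranslated part of the first exon. Those of SLC38A1 (chr12:46266502-46266531, minus strand) lay in sequence that GENCODE v44 annotates as intron. Those of SLC1A5 (chr19:46784893-46784922, minus strand) and ASNS (chr7:97872458-97872487, minus strand) fell in untranslated exon sequence of transcripts other than the canonical one. The matched letters of SLC1A4 (chr2:64989381-64989410, plus strand) were untranslated exon sequence of the canonical transcript, and those of SLC3A2 (chr11:62881719-62881748, plus strand) were coding sequence of another transcript. No match was found in the windows of SLC7A5, SLC7A6, SLC38A2 and SLC43A2, which says only that these letters are not in those windows. In the further gene lists described below, the letters occurred in 1 of 22 other plasma membrane transporters (4.55%) and 0 of 9 lysosomal transporters. They occurred in 4 of 15 amino acid response genes (26.7%), 3 of 16 enzymes (18.8%), 0 of 5 light chains of SLC3A2 and 0 of 17 sensing genes. Binding of any factor was not measured here, and a relation of these letters to footprint changes was not tested.

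Of the 10 transporters, 7 rose and 1 fell in G245S against WT at an adjusted p under 0.05 in edgeR's quasi-likelihood test, and 6 rose and 1 fell in R273H. Over all genes tested, 24.7% were called in G245S, 12.6% higher and 12.1% lower, and 28.8% were called in R273H, 14.2% higher and 14.6% lower. The median log2 fold change of the 10 was 0.31 in G245S and 0.26 in R273H, beside -0.000686 and -0.0024 over all genes. Both comparisons use the same WT dishes. Against a minimum change of 1.2-fold (edgeR's glmTreat), 4 members were called in G245S (SLC7A5, SLC7A11, SLC38A1 and SLC7A1) and 3 in R273H, SLC7A1 being the one that dropped out. The shares of all genes above belong to the test without a minimum change, and none is given for glmTreat.

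**Figure D1:**
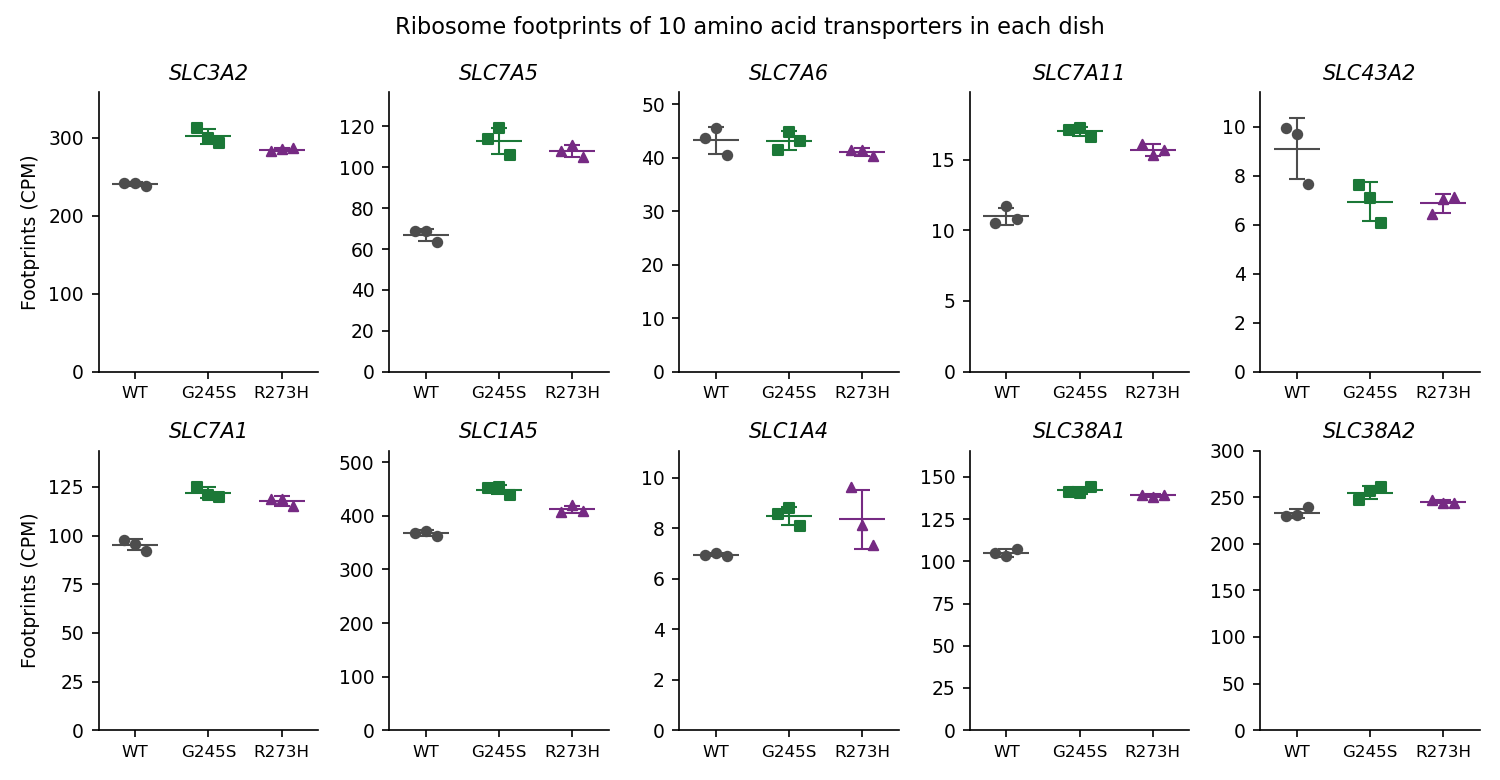
Footprints of each transporter, in CPM (vertical axis from 0), in the 3 dishes of WT (circles), G245S (squares) and R273H (triangles), with the mean (line) and SD (bars). All mutant dishes lie above all WT dishes for SLC3A2, SLC7A5, SLC7A11, SLC7A1, SLC1A5, SLC1A4, SLC38A1 and SLC38A2, below them for SLC43A2, and overlap with them for SLC7A6.

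The heavy chain SLC3A2 (ENSG00000168003, chr11:62856004-62888880, plus strand) had 242, 242 and 238 CPM in the WT dishes, 312, 300.4 and 293 CPM in G245S, and 283, 286 and 287 CPM in R273H. Every mutant dish was above every WT dish. Footprints rose by 25.4% in G245S (log2 fold change 0.33, SE 0.0269, adjusted p 1.9e-10, edgeR) and by 18.6% in R273H (0.25, SE 0.0267, adjusted p 3.9e-08). No annotated gene overlaps SLC3A2. Its coding sequence spans 1587 nt, and its 152 CPM per kb of coding length in WT was the third highest density among the 10.

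SLC7A5 (LAT1; ENSG00000103257, chr16:87830023-87869507, minus strand), the light chain that imports leucine and other large neutral amino acids, showed the largest rise of the 10. Its footprints numbered 68.6, 68.7 and 63.4 CPM in WT, 114, 119 and 106 CPM in G245S, and 108, 111 and 105 CPM in R273H. The lowest mutant dish was far above the highest WT dish. This was a rise of 68.7% in G245S (log2 fold change 0.75, SE 0.0423, adjusted p 8.6e-14, edgeR) and of 61.4% in R273H (0.69, SE 0.0417, adjusted p 4.3e-13). Only 1.89% of all genes tested had a higher fold change in G245S and 3.06% in R273H. SLC7A5 shares sequence with the pseudogenes SLC7A5P1 and SLC7A5P2, so reads may have been divided between them. SLC7A5P2 averaged 3.46 CPM in WT, 2.49 in G245S and 2.84 in R273H, SLC7A5P1 averaged 0.491, 0.466 and 0.627 CPM, and neither was called.

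SLC7A11 (xCT; ENSG00000151012, chr4:138164097-138242349, minus strand), the light chain that imports cystine in exchange for glutamate and so feeds glutathione synthesis, rose next most. It had 10.5, 11.7 and 10.8 CPM in WT, 17.1, 17.2 and 16.6 CPM in G245S, and 16.1, 15.3 and 15.7 CPM in R273H, with no overlap between WT and either mutant. On the log2 scale it rose by 0.63 in G245S (SE 0.0780, adjusted p 4.7e-07, edgeR) and by 0.52 in R273H (SE 0.0768, adjusted p 7e-06, edgeR). SLC7A11-AS1 lies on the opposite strand, and since the use of strand in counting is not stated, its reads could be included.

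SLC7A6 (y+LAT2; ENSG00000103064, chr16:68264516-68301823, plus strand), the light chain that exports arginine in exchange for glutamine, did not follow the other light chains among the 10. Its values were 43.8, 45.5 and 40.6 CPM in WT, 41.4, 44.9 and 43.2 CPM in G245S, and 41.5, 41.5 and 40.4 CPM in R273H. The 3 groups overlapped. Its log2 fold change had a 95% interval of -0.11 to 0.10 around -0.0033 in G245S and of -0.17 to 0.027 around -0.074 in R273H, and neither was called. SLC7A6 overlaps the coding gene SLC7A6OS on the opposite strand.

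As each light chain pairs with SLC3A2, the footprint density (CPM per kb of coding length) of each light chain was set beside that of SLC3A2 in the same dish. Summed over the 6 light chains, density relative to SLC3A2 was 0.604, 0.617 and 0.573 in WT, 0.649, 0.698 and 0.668 in G245S, and 0.687, 0.682 and 0.652 in R273H. Each mutant dish was above each WT dish, and the mean went from 0.598 ± 0.0229 in WT (SD, n = 3 dishes) to 0.671 ± 0.0247 in G245S and 0.674 ± 0.0189 in R273H. An exact two-sided permutation test gave p = 0.1 for each mutant against WT, the smallest that 3 dishes against 3 allow, and p = 0.9 between the mutants.

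Relative to SLC3A2, the footprint densities of single light chains moved differently. SLC7A5 went from 0.290 ± 0.0107 of the density of SLC3A2 in WT (SD, n = 3 dishes) to 0.390 ± 0.0185 in G245S and 0.395 ± 0.0120 in R273H, and SLC7A11 from 0.0483 ± 0.00252 to 0.0594 ± 0.00134 and 0.0581 ± 0.00185. The ratio of SLC7A6 went the other way, from 0.185 ± 0.00916 to 0.147 ± 0.00948 and 0.148 ± 0.00320. Its own footprints were not called as changed in either mutant, whereas those of SLC3A2 rose in both. For these 3 ratios the dishes of WT overlapped with those of neither mutant (exact permutation p = 0.1 each, the smallest possible). SLC7A8 (LAT2), a further light chain for neutral amino acids, kept close to the heavy chain at 0.0728 ± 0.00237, 0.0721 ± 0.00396 and 0.0708 ± 0.00402 (exact permutation p = 0.8 and 0.6 against WT). SLC7A7 reached at most 0.00339 and SLC7A10 at most 0.00123 in any dish.

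**Figure D2:**
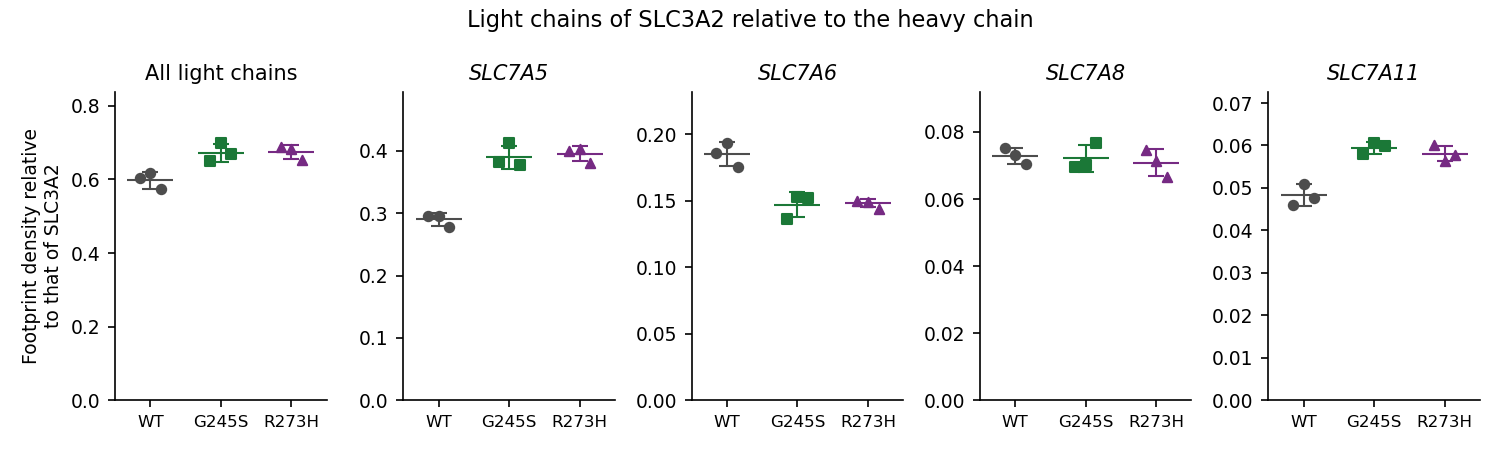
Footprint density of the 6 light chains together and of SLC7A5, SLC7A6, SLC7A8 and SLC7A11, divided by that of SLC3A2 in the same dish (vertical axis, a ratio from 0), for WT (circles), G245S (squares) and R273H (triangles), with mean (line) and SD (bars) of 3 dishes. SLC7A5 and SLC7A11 are higher per heavy chain in every mutant dish, SLC7A6 is lower, and SLC7A8 overlaps between groups.

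SLC7A1 (CAT1; ENSG00000139514, chr13:29509414-29595688, minus strand), the main carrier of arginine and lysine in many cells, had 97.9, 95.5 and 92.3 CPM in WT, 125, 121 and 120.1 CPM in G245S, and 119, 119 and 115 CPM in R273H. The mutant dishes were all above the WT dishes. It rose by 0.36 on the log2 scale in G245S (SE 0.0341, adjusted p 4e-09, edgeR) and 0.30 in R273H (SE 0.0335, adjusted p 5.7e-08, edgeR).

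SLC43A2 (LAT4; ENSG00000167703, chr17:1569268-1628886, minus strand), a carrier of branched-chain amino acids and phenylalanine that needs neither sodium nor SLC3A2, was the only member that fell. It had 9.93, 9.72 and 7.68 CPM in WT, 7.64, 7.08 and 6.07 CPM in G245S, and 6.42, 7.06 and 7.12 CPM in R273H. The lowest WT dish and the highest G245S dish nearly touched. The decrease was called in both mutants, at a log2 fold change of -0.40 in G245S (SE 0.118, adjusted p 0.0119, edgeR) and -0.41 in R273H (SE 0.114, adjusted p 0.00728, edgeR). With a mean of 159.7 counts per library it was the least covered of the 10, and the call rested on single dishes. It was not called in G245S without WT dish 1 (log2 fold change -0.34), WT dish 2 (-0.36) or G245S dish 3 (-0.31), nor in R273H without WT dish 1 (-0.34), nor in either mutant with DESeq2 (-0.40 in both).

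SLC1A5 (ASCT2; ENSG00000105281, chr19:46774883-46788594, minus strand), a sodium-dependent exchanger through which many cells take up glutamine, was the most heavily occupied of the 10. It had 369, 372 and 362 CPM in WT, 453, 454 and 439 CPM in G245S, and 408, 419.7 and 409 CPM in R273H. The 3 groups did not overlap with one another. It rose by 0.29 on the log2 scale in G245S (SE 0.0245, adjusted p 3.9e-10, edgeR) and by 0.17 in R273H (SE 0.0244, adjusted p 5.9e-06, edgeR).

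SLC1A4 (ASCT1; ENSG00000115902, chr2:64988477-65023865, plus strand), a related exchanger of alanine, serine and cysteine, had the lowest footprint density of the 10 in WT. Its values were 6.95, 7.03 and 6.91 CPM in WT, 8.56, 8.80 and 8.08 CPM in G245S, and 9.64, 8.13 and 7.33 CPM in R273H. All mutant dishes were above all WT dishes, but the R273H dishes spread widely. Log2 fold changes were 0.28 for G245S (SE 0.113, adjusted p 0.0671, edgeR) and 0.27 in R273H (SE 0.110, adjusted p 0.0691, edgeR), so neither was called at a mean of 168 counts per library. Without R273H dish 3, SLC1A4 was called in R273H at a log2 fold change of 0.35. It was also called there after a correction for length and GC content, at 0.28.

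SLC38A1 (SNAT1; ENSG00000111371, chr12:46183063-46270017, minus strand), which concentrates glutamine in the cell with sodium, had 105, 103 and 107 CPM in WT, 141, 140.4 and 144 CPM in G245S, and 139, 138 and 139 CPM in R273H. Mutant dishes exceeded the WT dishes without overlap. Both rises passed the test, with 0.43 on the log2 scale in G245S (SE 0.0310, adjusted p 1e-11, edgeR) and 0.40 in R273H (SE 0.0305, adjusted p 2.9e-11, edgeR).

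SLC38A2 (SNAT2; ENSG00000134294, chr12:46358188-46372773, minus strand), its neighbour on the chromosome and a carrier that cells deprived of amino acids are known to induce, moved less. It had 229.9, 231 and 239 CPM in WT, 247, 257 and 261 CPM in G245S, and 247, 244 and 244 CPM in R273H. The mutant dishes were above the WT dishes, though only by a little in R273H. Its log2 fold change of 0.13 in G245S was called (SE 0.0274, adjusted p 0.0008, edgeR), and that of 0.070 in R273H was not (SE 0.0271, adjusted p 0.0522). In R273H it was called without WT dish 3 (0.090), G245S dish 1 (0.072) or G245S dish 3 (0.072), and under 5 of the 10 alternatives that kept all dishes.

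**Figure D3:**
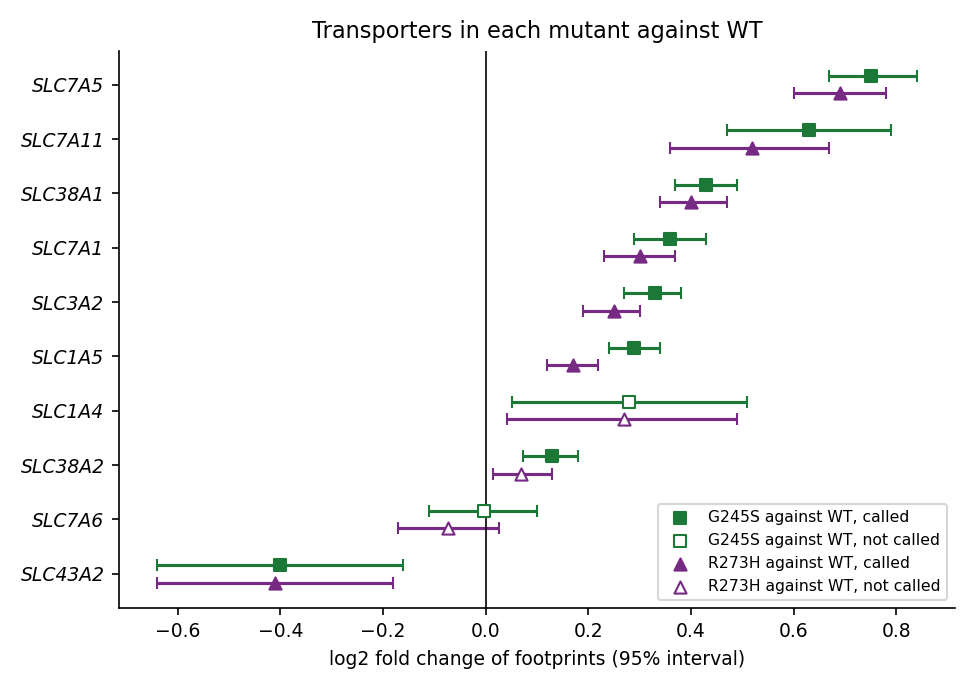
The log2 fold change (horizontal axis) of each transporter in G245S (squares) and R273H (triangles) against WT, with bars for the 95% interval from the edgeR fit and filled points where the adjusted p was under 0.05. SLC7A5 leads at 0.75 and 0.69, the intervals of SLC7A6 include 0, and SLC43A2 lies at -0.40 and -0.41.

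The ranking of the transporters by footprint density changed little. In WT it ran from SLC1A5 (226 ± 2.98 CPM per kb, SD, n = 3 dishes) through SLC38A2 (154 ± 3.2) and SLC3A2 (152 ± 1.37), whose dishes overlapped, to SLC38A1 (71.9 ± 1.56), SLC7A1 (50.5 ± 1.49) and SLC7A5 (44 ± 2.0). SLC7A6 (28.0 ± 1.62), SLC7A11 (7.32 ± 0.399), SLC43A2 (5.34 ± 0.727) and SLC1A4 (4.36 ± 0.0368) closed the list, and no other neighbours overlapped. In both mutants SLC3A2 stood above SLC38A2, SLC7A5 above SLC7A1, and SLC1A4 above SLC43A2, without overlap between the dishes of each pair. Coding length is that of the canonical transcript.

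**Figure D4:**
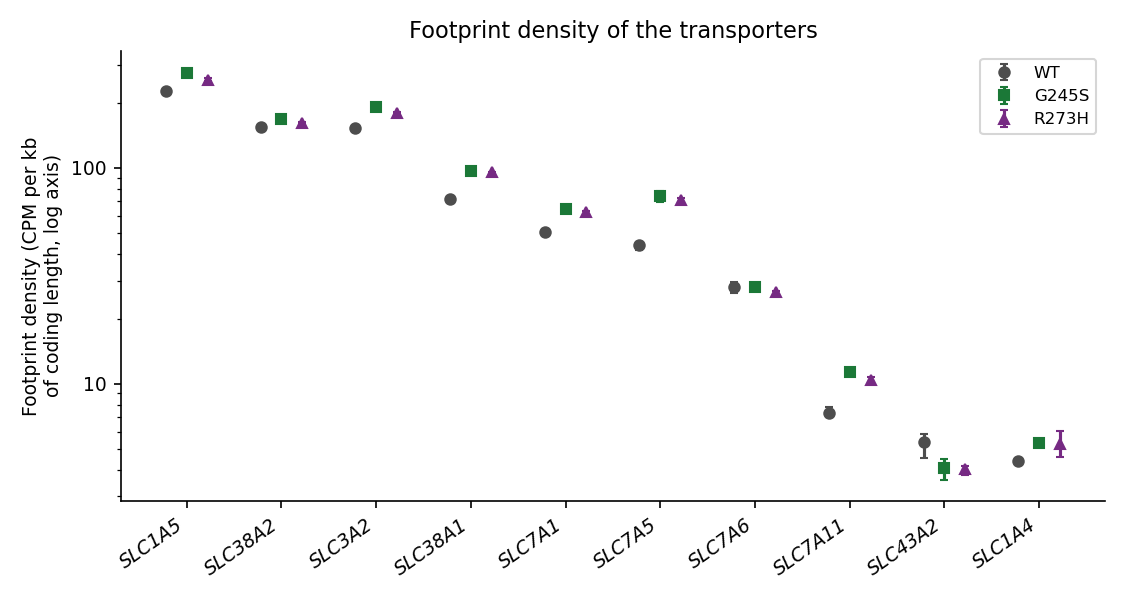
Footprint density (CPM per kb of coding length, log axis) of each transporter in WT (circles), G245S (squares) and R273H (triangles), as the mean of 3 dishes with bars from the lowest to the highest dish. Genes are ordered by their WT level, from SLC1A5 at 226 to SLC1A4 at 4.36 CPM per kb.

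Together the 10 transporters took 1183, 1186 and 1168 CPM in the WT dishes, 1468, 1469 and 1437 CPM in G245S, and 1379, 1389 and 1369 CPM in R273H. The summed level was 1.24-fold higher in G245S and 1.17-fold higher in R273H than in WT, without overlap between any 2 groups (exact two-sided permutation p = 0.1 for each pair, the smallest possible). Within that sum SLC7A5 went from 5.67% ± 0.214 in WT (SD, n = 3 dishes) to 7.75% ± 0.347 in G245S and 7.83% ± 0.152 in R273H. The share of SLC38A2 went from 19.8% ± 0.569 to 17.5% ± 0.652 and 17.8% ± 0.159. SLC1A5 and SLC3A2 held the largest shares in all 3 groups, at 29.9% to 31.2% and 20.4% to 20.7%.

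The mutants were also compared with each other. SLC1A5 was the 1 transporter called, 0.12 higher in G245S than in R273H on the log2 scale (SE 0.0241, adjusted p 0.00422, edgeR), where 2.59% of all genes were called. It was not called without G245S dish 2 (0.11) or after the length and GC correction (0.072). The fold changes of all 10 were above 0, with a median of 0.061 beside 0.000593 over all genes. Of the 10, 3 had an unadjusted p under 0.05 in edgeR, as did 3120 of all 19820 genes tested. SLC3A2 differed by 0.080 and was not called (adjusted p 0.106, edgeR), but was called without G245S dish 3, at 0.10. The 95% interval was -0.016 to 0.14 for SLC7A5 and -0.032 to 0.26 for SLC7A11.

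Levels over the 9 dishes followed SLC3A2 closely for most members. Pearson's r of log2 CPM with SLC3A2 was 0.982 for SLC7A1, 0.978 for SLC7A11, 0.975 for SLC7A5, 0.971 for SLC1A5 and 0.958 for SLC38A1, and lower for SLC38A2 (0.811) and SLC1A4 (0.769). It was -0.198 for SLC7A6 and -0.704 for SLC43A2. These values describe 9 dishes that fall into 3 groups and share their pool within a group, and they carry no test. Outside the gene lists used here, and among 10883 coding genes, the levels most like SLC3A2 were those of CS (citrate synthase, 0.995), FASN (fatty acid synthase, 0.994), TRAP1 (a mitochondrial chaperone, 0.992), MYBBP1A (a nucleolar protein, 0.991) and UHRF1 (a maintenance factor of DNA methylation, 0.990).

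Other transporters of the plasma membrane rose as well. Of 30 further genes, 14 passed the filter, of which 9 rose and 0 fell in G245S, and 9 rose and 0 fell in R273H, with a median log2 fold change of 0.31 and 0.25. DESeq2 called 9 and 6 of them. By edgeR, 12.6% of all genes tested rose and 12.1% fell in G245S, and 14.2% rose and 14.6% fell in R273H. SLC7A3, an arginine carrier known to respond to p53, went from 12.9 ± 0.906 CPM (WT, SD over 3 dishes) to 18.7 ± 0.659 in G245S and 17.2 ± 0.346 in R273H, with log2 fold changes of 0.54 and 0.41. SLC1A3, a glutamate and aspartate carrier with the same background, went from 94.2 ± 1.02 to 126 ± 1.36 and 121 ± 3.51 CPM, or 0.42 and 0.36. The direction of that known response is not given by these data, so the rises of SLC7A3 and SLC1A3 are not read as following it. The glycine carrier SLC6A9 rose by 0.53 and 0.43 and the glutamine carrier SLC38A3 by 0.51 and 0.28. Calls of both depended on single dishes: SLC6A9 was lost in both mutants without WT dish 2, in G245S without G245S dish 1 and in R273H without R273H dish 3, and SLC38A3 was lost in R273H without any 1 of WT dishes 1 and 2 and R273H dishes 2 and 3. The light chain SLC7A8 rose by 0.31 and 0.21, and its call in R273H was lost without WT dish 3 or R273H dishes 1 or 2.

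Carriers of the lysosome behaved otherwise by value. Of 9 listed, 8 were tested, and edgeR called 0 in either mutant, with 1 at an unadjusted p under 0.05 in each and 0 called by DESeq2. Of all genes tested, edgeR called 24.7% in G245S and 28.8% in R273H. The unadjusted p was under 0.05 for 7083 of the 19820 genes in G245S and for 7697 in R273H. Log2 fold changes of the list had a median of 0.00076 in G245S and -0.0144 in R273H. The list includes SLC29A3, a nucleoside carrier. SLC66A1, which exports arginine and lysine from the lysosome, was called in R273H without WT dish 3 (-0.27), and CTNS, the cystine exporter, without R273H dish 2 (-0.20); both were named after their values were seen. Whether the lists differ from each other was not tested.

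Genes of the amino acid response, most of them known targets of ATF4, rose more often than they fell. Of 20 tested, 14 rose and 2 fell in G245S, and 14 rose and 2 fell in R273H. Their median log2 fold change was 0.25 and 0.22. Of all genes tested, 12.6% rose and 12.1% fell in G245S, and 14.2% rose and 14.6% fell in R273H. ASNS, whose stretch with the element is printed above, went from 139 ± 4.96 CPM (WT, SD over 3 dishes) to 198 ± 6.05 in G245S and 192 ± 1.98 in R273H, or 0.52 and 0.47 on the log2 scale. ALDH1L2, an enzyme of mitochondrial folate, rose by 0.67 and 0.68, and STC2, a secreted glycoprotein, by 0.49 and 0.47. ATF4 itself, named after its values were seen, rose by 0.27 and 0.34. SESN2, a leucine sensor that p53 and ATF4 are both known to raise, fell from 83.4 ± 5.13 CPM to 50.9 ± 2.97 and 49.4 ± 0.290 CPM. The other gene that fell was ATF3 in G245S (-0.32) and DDIT4 in R273H (-0.16), both named after their values were seen.

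Among 19 enzymes that use the amino acids carried in, 9 rose and 3 fell in each mutant. ASS1, which makes argininosuccinate on the way to arginine, rose by 0.58 in G245S and 0.62 in R273H, and BCAT1, which transaminates branched-chain amino acids, by 0.41 and 0.43. GLS2, a glutaminase that WT p53 is known to activate, fell from 9.50 ± 1.11 CPM (WT, SD over 3 dishes) to 4.11 ± 0.628 in G245S and 3.45 ± 0.461 in R273H, a log2 fold change of -1.20 and -1.46. GSS, which makes glutathione, fell by 0.15 and 0.25, and was not called in G245S without WT dish 1 (-0.11). The third that fell was GCLM in G245S (-0.13) and ASL in R273H (-0.30), named after their values were seen.

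Genes whose proteins report amino acids to mTORC1 fell more often than they rose. Of 22 tested, 1 rose and 10 fell in G245S, and 3 rose and 11 fell in R273H. Their median log2 fold change was -0.13 and -0.19. Of all genes tested, 12.6% rose and 12.1% fell in G245S, and 14.2% rose and 14.6% fell in R273H. SESN1, a sensor that WT p53 is known to activate, went from 62.7 ± 1.79 CPM (WT, SD over 3 dishes) to 31.3 ± 1.18 in G245S and 29.5 ± 0.766 in R273H, or -1.0 and -1.09 on the log2 scale. SESN3 fell by 0.40 and 0.38. LARS1, the leucyl-tRNA synthetase, rose by 0.14 and 0.18, and was joined in R273H by CASTOR2 (0.26) and FNIP1 (0.21), named after their values were seen. ASNS and SESN2 each stand in 2 of these lists. For scale, the median of all log2 fold changes with the sign dropped was 0.146 in G245S and 0.153 in R273H.

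**Figure D5:**
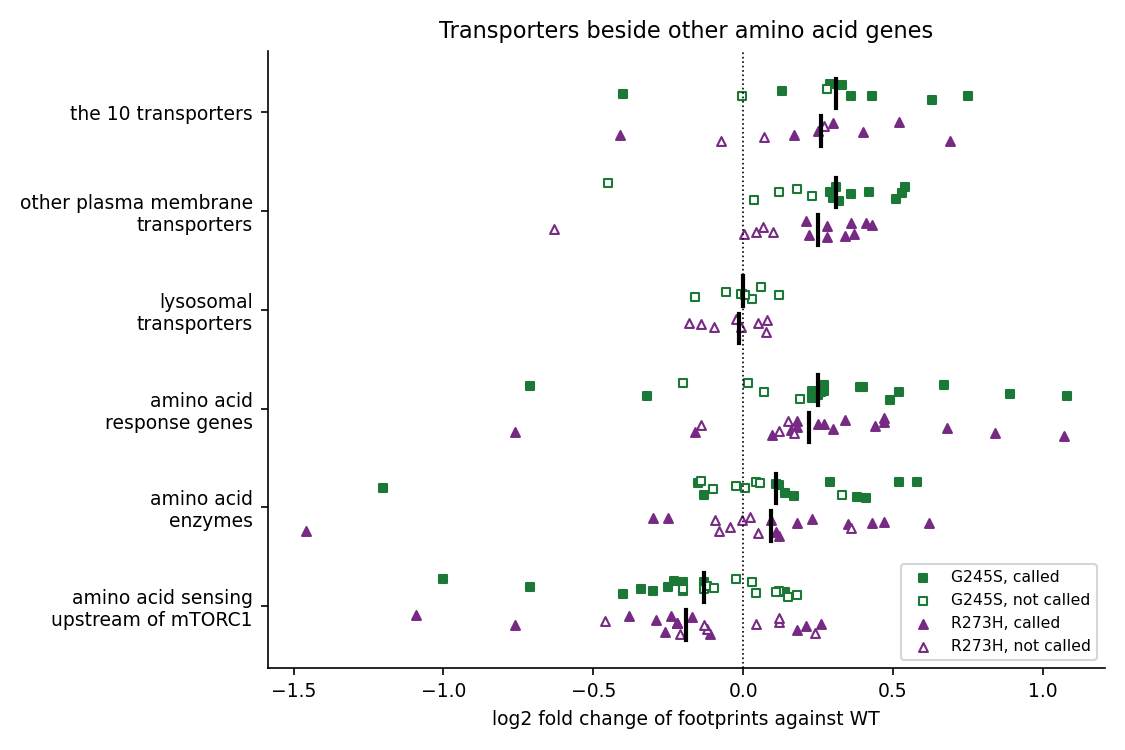
The log2 fold change against WT (horizontal axis) of each gene of 6 lists in G245S (squares) and R273H (triangles), filled where called by edgeR, with the list median as a black bar. Medians of the 10 transporters (0.31 and 0.26) and of other plasma membrane transporters (0.31 and 0.25) lie to the right of 0, those of lysosomal transporters at 0.00076 and -0.0144, and those of amino acid sensing at -0.13 and -0.19.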

How the data were processed

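Ribo-seq footprints from HEK293T lines with a WT, G245S or R273H p53 construct were analysed, 3 dishes per group. Groups follow the sample titles, and dishes the column names. The authors removed adapters with Trim Galore and rRNA reads with SortMeRNA and aligned reads to GRCh38 with STAR; processing notes also name UMI-tools. The deposited values are expected counts per gene, neither scaled for depth nor for length, and between 61.5% and 63.7% of the nonzero values were not whole. The counting tool, the annotation and the use of strand are not given in the sources used here.

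Expected counts were rounded and fitted with edgeR 4.0.16 in R 4.3.3 (TMM, filterByExpr, robust glmQLFit, glmQLFTest, two-sided) over the 9 libraries, with a term for group alone (6 residual degrees of freedom). A call means an adjusted p (Benjamini-Hochberg, over 19820 genes) under 0.05. The study names a Wald test, and the DESeq2 1.42.0 Wald test was an alternative. Intervals (95%) come from the fitted SE. CPM uses TMM-scaled library totals, and coding length is that of the canonical transcript in GENCODE v44 (GRCh38), to which 62666 identifiers (99.09%) were matched. The labels give no pairing of dishes across groups. Chi-square per degree of freedom between dishes of a group was 1.48 to 2.62, more than sampling noise. The fit was tested on simulated counts with known fold changes.

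The transporters and gene lists were chosen with earlier results of these data known. All 10 transporters are named, with MDM2 and CDKN1A, SLC7A3, SLC1A3 and the SLC7A5 pseudogenes. Of each other list, up to 3 genes with the largest positive and 3 with the largest negative mean change were named, among genes called in both mutants whose mean count reached 100. The 5 coding genes most correlated with SLC3A2 were also named. Other named genes are stated as chosen after their values were seen. No spike-in was used, so fold changes are relative to all genes of a library. Some items are not reported here.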

Additional observations from a re-analysis of the deposited data

Results flagged for a closer look

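SLC1A5, the glutamine exchanger, was singled out because its change against WT differed between the mutants in a test of the difference itself. The log2 fold change of G245S against R273H was 0.12 (SE 0.0241, adjusted p 0.00422, edgeR's quasi-likelihood test), with all 3 G245S dishes (439 to 454 CPM) above all 3 R273H dishes (408 to 419.7 CPM). The adjusted p ranged from 5.83e-05 to 1 over 19 alternatives, and the call was lost in 3 of them: without G245S dish 2, with the length and GC correction, and against a minimum change of 1.2-fold. Each mutant was its own pool, so mutant and pool cannot be told apart here.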

How the results depend on the processing

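The alternatives were 10 with all dishes and 9 that left out 1 dish. Over these, 181 of 190 values of the 10 transporters in G245S against WT kept their side of the threshold. So did 173 of 190 in R273H against WT and 180 of 187 between the mutants. Of the values called in either fit, 0 changed direction. Values that were not called could change sign. SLC1A4 between the mutants, for example, was at 0.016 in the fit used above and at -0.068 at the lowest. Requiring a minimum change of 1.2-fold lowered the transporters called from 8 to 4 in G245S, from 7 to 3 in R273H and from 1 to 0 between the mutants. In G245S and R273H it lowered other plasma membrane transporters to 2 and 2, amino acid response genes to 6 and 5, enzymes to 4 and 4, and sensing genes to 2 and 2. DESeq2 called 9 of the sensing genes in R273H. Shares of all genes called under the alternatives are not given here, so the counts under them stand without that baseline. Leaving out 1 dish gave 7 to 8 transporters in G245S, 6 to 8 in R273H and 0 to 2 between the mutants (0 without G245S dish 2, 2 without G245S dish 3), and 0 to 1 lysosomal genes in R273H.

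With the dish number as a replicate block, 9 transporters were called in G245S, 8 in R273H and 2 between the mutants, also 2 with the length and GC correction added. SLC1A4 was then called in G245S (0.29), SLC38A2 in R273H (0.070) and SLC3A2 between the mutants (0.080). The block called 1 lysosomal gene in G245S, CTNS (-0.16), as did a minimum mean count of 100. Deviations from the group means correlated at 0.0421 to 0.229 between same-numbered dishes of different groups, with 4 of 9 over 0.1, and at -0.184 to 0.0583 between dishes of other numbers. Every dish but R273H dish 2, set against WT, correlated best with its own number, a hint from the data and not from the design. By the threshold of 0.1 for every pair, the dishes were not treated as paired. SLC38A2 was also called between the mutants with the length and GC correction, at 0.11. The ratio of light chains to SLC3A2 was 0.523 in WT, 0.597 in G245S and 0.601 in R273H with SLC7A5, SLC7A6 and SLC7A11 alone, and 0.651 in R273H without division by length. The cause of each lost or added call was not tested. SLC43A2 and SLC1A4 had the fewest counts of the 10, with means of 159.7 and 168 per library.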
